A study of Mus musculus with 2 samples.

Results

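The genes described here are glucocorticoid-induced genes, metallothioneins and the genes that pass on the glucocorticoid signal. They are *Nr3c1*, *Hsd11b1*, *Fkbp5*, *Tsc22d3*, *Per1*, *Zbtb16*, *Sgk1*, *Txnip*, *Mt1* and *Mt2*, 10 of the 32285 genes in the deposited tables. They were chosen by their symbols, with earlier results of these data known, and all 10 had unique molecular identifiers (UMIs) in both libraries. The scRNA-seq data cover lung cells of 1 control and 1 *Gli1 HHIPCKO* animal, both at postnatal day 14. Both mice carried *Gli1 creER/+* and *Hhip flox/flox*; the *Gli1 HHIPCKO* mouse was given tamoxifen on each of the 3 days from birth, and the control mouse was given oil. The CreER is made in *Gli1*-expressing cells, so that *Hhip* can be deleted in these stromal cells and not throughout the lung. Live stromal and epithelial cells, sorted without CD45 and CD31, were mixed with stromal cells in excess, and the methods name a 5′ kit where the sample labels name a 3′ kit. The control library held 43291709 UMIs in 10999 cells, with a median of 3531 per cell, and the *Gli1 HHIPCKO* library 52338969 UMIs in 12350 cells, with a median of 3720.

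Glucocorticoids bind the receptor encoded by *Nr3c1*, which chaperones hold in the cytoplasm until the hormone releases it to the nucleus, where it binds palindromic DNA elements and raises the transcription of target genes. The enzyme encoded by *Hsd11b1* regenerates active hormone inside cells from an inert form, and several targets, among them *Fkbp5* and *Per1*, respond in almost every tissue. In the lung, glucocorticoids are known for driving maturation before and after birth, and metallothioneins, which bind zinc and copper, respond both to metals and to these hormones.

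Cells were grouped by markers into classes, and the names end in "-like" because they rest on these markers alone. The 11 classes compared were AT2-like (2913 control and 2779 *Gli1 HHIPCKO* cells), myofibroblast-like (2754 and 2665), alveolar fibroblast-like (617 and 1899), adventitial fibroblast-like (703 and 738), pericyte-like (430 and 725), mesothelial-like (299 and 310), vascular smooth muscle-like (280 and 297), lymphoid-like (370 and 166), peribronchial-like (168 and 267), ciliated-like (256 and 127) and endothelial-like (157 and 102). The myofibroblast-like class was also read as ALMF-like (1097 and 375) and DMF-like cells (1657 and 2290). The DMF-like cells of each library lay almost wholly in a cluster of their own, so a difference in that class can come from the library or from the state of the cells. Unnamed clusters, with 15.1% (control) and 14.9% (*Gli1 HHIPCKO*) of the cells, enter no value by class.

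UMIs of a gene were summed over a class and scaled to the class's total as CPM, with exact Poisson 95% intervals. Ratios set *Gli1 HHIPCKO* over control on the log2 scale, with exact binomial 95% intervals, and all intervals cover counting error only. With 1 mouse per group there was no test and no p-value. A gene was tested in a class when it had at least 50 UMIs over both libraries, and it is said to have risen or fallen when the log2 ratio was at least 1 in size. The deletion, tamoxifen, and the mouse with its library cannot be told apart.

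*Hhip* (chr8:79965851-80058006 of GRCm38), the deleted gene, served as a check of the labels. It fell from 1130 to 292 CPM in myofibroblast-like cells, a log2 ratio of −1.95 (−2.02 to −1.89), and from 2368 to 650 CPM in peribronchial-like cells, a ratio of −1.86 (−2.01 to −1.72). In the ALMF-like part of the myofibroblast-like class *Hhip* went from 230 to 129 CPM. That ratio, −0.83 (−1.09 to −0.58), was short of the rule. The labels of the libraries therefore match the gene that was targeted. *Xist*, the RNA of the inactive X chromosome, went from 0 to 316 CPM in myofibroblast-like cells, at least 9.77 higher on the log2 scale against a floor of 3 UMIs. *Eif2s3y* on the Y chromosome stood at 71.2 and 0 CPM there. The mice thus differed in sex, and an effect of sex cannot be told apart from that of the deletion either. The libraries shared 193 cell barcodes, and leaving those cells out changed no count of called members.

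Over the 11 classes the members gave 95 values with enough UMIs, and 41 of these rose and 1 fell. In AT2-like cells 5 of 10 members rose and 0 fell, where 1.48% of all 10971 genes tested rose and 1.06% fell. In myofibroblast-like cells 6 of 10 rose and 0 fell, beside 3.36% and 1.93% of 11164 genes. In the class with the most members raised, these were *Fkbp5*, *Sgk1*, *Txnip*, *Mt1*, *Mt2* and *Hsd11b1*. Alveolar fibroblast-like cells had 4 of 10 members raised and 0 lowered, beside 1.96% and 1.87% of 10201 genes, and adventitial fibroblast-like cells also had 4 of 10 and 0, beside 1.93% and 1.41% of 9131. The same set of *Fkbp5*, *Txnip*, *Mt1* and *Mt2* rose in both fibroblast classes. Pericyte-like cells had 3 of 9 members raised and 0 lowered, beside 1.96% and 0.672% of 6546 genes, and mesothelial-like cells 5 of 9 and 0, beside 2.15% and 1.35% of 6286. Vascular smooth muscle-like cells had 3 of 8 raised and 0 lowered, beside 2.00% and 1.29% of 5363 genes. In each of these 7 classes the share of members that rose was above the share of all genes. The AT2-like count includes *Hsd11b1* and *Fkbp5*, whose levels there are set beside free RNA further on.

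In peribronchial-like cells 3 of 8 members rose and 1 fell, beside 3.06% and 2.42% of 5157 genes, and the gene that fell was *Zbtb16*. Lymphoid-like cells had 3 of 7 raised and 0 lowered, beside 2.83% and 3.23% of 4700 genes, ciliated-like cells 2 of 7 and 0, beside 1.02% and 1.14% of 6070, and endothelial-like cells 3 of 7 and 0, beside 3.62% and 2.34% of 2182. These last 3 classes carried the most RNA of other cells, and the members called there are set beside that background further on. The median log2 ratio of the members ran from 0.53 in vascular smooth muscle-like to 1.47 in mesothelial-like cells, while the median of all genes ran from −0.06 to 0.07. Among the 1684 genes tested in all 11 classes, 7 rose in at least 8 of them, and *Txnip* and *Mt1* were 2 of the 7. The others were *Glul*, *Rps12*, *Cirbp*, *Hist1h1e* and *Xist*, of which only *Glul* and *Xist* were in a gene list here; the other names were chosen after their values were seen.

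**Figure D1:**
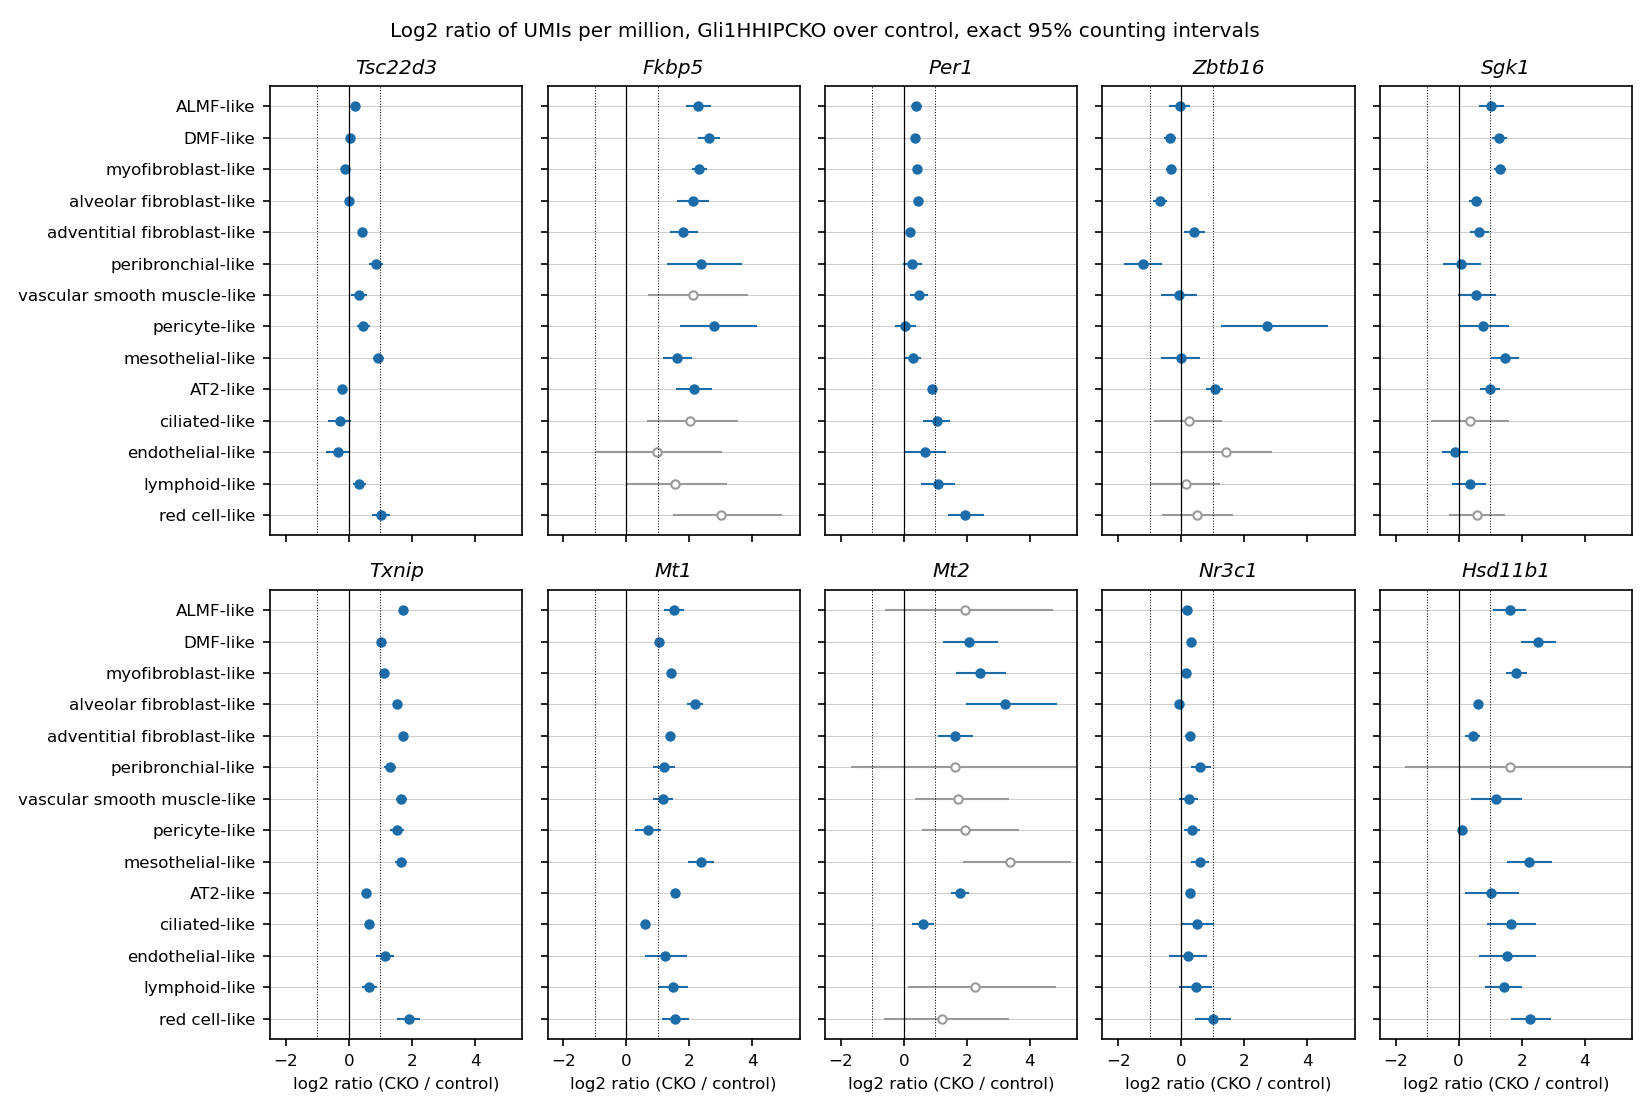
Log2 ratio of CPM, *Gli1 HHIPCKO* over control, of the 10 genes (panels) in each cell class (rows), with exact 95% counting intervals; the dotted lines mark a change of 2-fold and hollow grey points have under 50 UMIs. *Fkbp5* lies past the upper dotted line in all 7 classes tested, while *Nr3c1* and *Tsc22d3* lie within the dotted lines in all 11 classes compared. The red cell-like row, which is not among the 11, has *Tsc22d3* at 1.01 and *Nr3c1* at 1.00.

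*Nr3c1* (ENSMUSG00000024431), the receptor gene, was called in none of the 11 classes. ALMF-like cells held its highest level, 319 CPM (301 to 339) in control and 359 CPM (325 to 395) in *Gli1 HHIPCKO*, and AT2-like cells its lowest, 59.1 CPM (55.2 to 63.2) and 71.3 CPM (67.3 to 75.5). Between them, pericyte-like cells held 258 and 326 CPM, and the other stromal classes and endothelial-like cells 164 to 233 CPM in control and 203 to 306 CPM in *Gli1 HHIPCKO*. Stromal cells therefore held a larger share of receptor transcript than AT2-like, ciliated-like (62.9 and 89.2 CPM) or lymphoid-like cells (86.3 and 119 CPM). In control ALMF-like cells stood clear of the class next in order, as did mesothelial-like cells of lymphoid-like cells, and in *Gli1 HHIPCKO* the intervals of all neighbours in the order met. The log2 ratio ran from −0.06 (−0.21 to 0.09) in alveolar fibroblast-like to 0.61 (0.30 to 0.93) in peribronchial-like cells, and its interval lay above 0 in 6 classes and held 0 in 5. The receptor gene was thus slightly higher in several classes, by less than the rule asks.

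*Hsd11b1* (ENSMUSG00000016194; chr1:193221634-193264075, on the minus strand), the enzyme that reactivates the hormone, was a gene of pericyte-like and alveolar fibroblast-like cells. Pericyte-like cells held 1495 CPM (1410 to 1585) in the control library and 1609 CPM (1542 to 1678) in the other, and the levels were 660 CPM (626 to 694) and 999 CPM (976 to 1022) in alveolar fibroblast-like cells. All other classes held under 155 CPM in either library, with adventitial fibroblast-like (83.4 and 113 CPM) and endothelial-like cells (53.2 and 154 CPM) next in order in control and with meeting intervals there. An *Hsd11b1* UMI was found in 83.7% of control and 87.7% of *Gli1 HHIPCKO* pericyte-like cells, against 5.12% and 16.2% of red cell-like cells, which should lack it. In the class with the highest level the log2 ratio was 0.11 (0.00 to 0.21), and in alveolar fibroblast-like cells 0.60 (0.52 to 0.68).

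The gene rose in 7 of the 10 classes tested, all of them at low levels. Myofibroblast-like cells went from 11.2 to 39.7 CPM, a ratio of 1.82 (1.49 to 2.17), with 17.9 and 55.4 CPM in ALMF-like and 6.53 and 37.2 CPM in DMF-like cells. Mesothelial-like cells went from 19.4 to 90.9 CPM, a ratio of 2.23 (1.54 to 2.97), but at Leiden resolution 2 that ratio was 0.15. Vascular smooth muscle-like cells went from 26.5 to 60.1 CPM, a ratio of 1.18, which was 0.90 with each cell counted equally. In the classes where the enzyme was abundant, its transcript thus changed less than 2-fold, and the calls came from classes with little of it. Ciliated-like (21.3 and 67.3 CPM), lymphoid-like (49.1 and 132 CPM), endothelial-like and AT2-like cells (1.23 and 2.52 CPM) also passed the rule, in classes whose levels are set beside an estimate of free RNA further on. The AT2-like ratio of *Hsd11b1*, 1.03 on 18 and 42 UMIs, was 0.70 after thinning. Peribronchial-like cells, with 1 and 4 UMIs, were not tested.

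*Fkbp5* (ENSMUSG00000024222; chr17:28399094-28517527, minus strand) encodes a chaperone partner that lowers the receptor's affinity for hormone and is itself induced by the receptor. It rose in each of the 7 classes where it was tested. Myofibroblast-like cells went from 19.4 CPM (16.5 to 22.6) in control to 96.5 CPM (90.1 to 103) in *Gli1 HHIPCKO*, and the log2 ratio was 2.31 (2.07 to 2.57). The ALMF-like part went from 25.6 to 124 CPM and the DMF-like part from 15.1 to 92.3 CPM, so both kinds of myofibroblast-like cells were higher in *Gli1 HHIPCKO*, and their intervals did not overlap between libraries. Alveolar fibroblast-like cells went from 17.1 CPM (12.1 to 23.5) to 73.2 CPM (67.1 to 79.8) and adventitial fibroblast-like cells from 20.7 CPM (15.7 to 26.9) to 72.4 CPM (62.6 to 83.3). Pericyte-like cells, with 9.17 CPM (3.69 to 18.9) and 63.4 CPM (50.7 to 78.3), had the largest ratio, 2.79 (1.69 to 4.15). Mesothelial-like cells had the highest level in both libraries, 50.3 CPM (38.1 to 65.1) and 153 CPM (129 to 179), and the smallest ratio of the 7, 1.60 (1.15 to 2.07). The rise was therefore present in classes with low and with high starting levels alike.

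AT2-like cells had the lowest *Fkbp5* level, 2.26 CPM (1.56 to 3.17) and 9.95 CPM (8.50 to 11.6), and peribronchial-like cells went from 12.3 to 63.8 CPM. In 4 classes the gene had under 50 UMIs, with 6.62 and 28.8 CPM in vascular smooth muscle-like, 6.20 and 25.0 CPM in ciliated-like, 7.65 and 22.4 CPM in lymphoid-like and 14.8 and 29.0 CPM in endothelial-like cells. The order of the classes was alike at its ends in both libraries, with mesothelial-like and ALMF-like cells at the top and AT2-like cells at the bottom. In control only the first place stood clear of the next, and the intervals of the other neighbours met. In *Gli1 HHIPCKO* mesothelial-like met ALMF-like cells, ALMF-like and DMF-like cells each stood clear of the class below them, and the rest met their neighbours.

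More cells of the *Gli1 HHIPCKO* mouse held an *Fkbp5* UMI. Of the myofibroblast-like cells, 5.66% in control (4.83% to 6.59%) and 25.4% in *Gli1 HHIPCKO* (23.8% to 27.1%) held one, at medians of 2866.5 and 3114 UMIs per cell, and 3.81% and 16.4% with every cell thinned to 2000 UMIs. Red cell-like cells, which give the background of free RNA, had 1.86% and 12.1% at medians of 4979 and 5261.5 UMIs, and 0 of 205 cells and 3.26% after thinning. The share in myofibroblast-like cells was above that background in both libraries after thinning. In AT2-like cells the share went from 1.10% to 5.58%, or from 0.460% to 2.24% after thinning, which is no more than the red cell-like share in *Gli1 HHIPCKO*. By the share of cells alone, expression and background were therefore not separable in AT2-like cells. The estimate of free RNA given further on came to 39.6% (control) and 54.5% (*Gli1 HHIPCKO*) of the *Fkbp5* level there. It rests on 4 and 31 *Fkbp5* UMIs in red cell-like cells.

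*Tsc22d3* (ENSMUSG00000031431; chrX:140539528-140600659, minus strand), which encodes the glucocorticoid-induced leucine zipper protein GILZ, was called in none of the 11 classes. ALMF-like cells held 1761 CPM (1716 to 1806) in control and 2026 CPM (1945 to 2109) in *Gli1 HHIPCKO*, DMF-like cells 1115 and 1146 CPM, and alveolar fibroblast-like cells 899 and 904 CPM, in that order in both libraries and each clear of the next. The gene thus marked these stromal classes and was nearly level between libraries in DMF-like (0.04) and alveolar fibroblast-like cells (0.01). In the middle of the order came lymphoid-like (567 and 711 CPM), endothelial-like (517 and 405), adventitial fibroblast-like (443 and 587), peribronchial-like (427 and 773), mesothelial-like (372 and 709), pericyte-like (353 and 486) and vascular smooth muscle-like cells (297 and 372), most with meeting intervals. AT2-like (200 and 173 CPM) and ciliated-like cells (165 and 135 CPM) were lowest. The log2 ratio was highest in mesothelial-like (0.93, 0.75 to 1.11) and peribronchial-like cells (0.86, 0.65 to 1.07). It was lowest in endothelial-like (−0.35, −0.74 to 0.03) and ciliated-like cells (−0.29, −0.68 to 0.08), with intervals that held 0. The interval lay below 0 in AT2-like cells (−0.21, −0.28 to −0.13) and in the combined myofibroblast-like cells (−0.13, −0.16 to −0.09), although the ratio was 0.20 (0.13 to 0.27) in the ALMF-like part, which made up 1097 of 2754 control but 375 of 2665 *Gli1 HHIPCKO* cells. Both parts depended on the clustering: the *Tsc22d3* ratio of the ALMF-like part was −0.13 at resolution 2 and 0.45 at resolution 0.5, and that of the DMF-like part −0.18 and 1.14.

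*Per1* (ENSMUSG00000020893; chr11:69095217-69109960, plus strand), a clock gene that the receptor also induces directly, leaned upwards without passing the rule in most classes. DMF-like cells held its highest level, 289 CPM (274 to 304) in control and 370 CPM (356 to 384) in *Gli1 HHIPCKO*, followed by ALMF-like (255 and 335 CPM) and alveolar fibroblast-like cells (244 and 334 CPM). Peribronchial-like, adventitial fibroblast-like, vascular smooth muscle-like and mesothelial-like cells held 221 to 231 CPM in control, with meeting intervals, and 266 to 312 CPM in *Gli1 HHIPCKO*. Pericyte-like (153 and 158 CPM), endothelial-like (124 and 198), ciliated-like (77.1 and 160), AT2-like (71.9 and 133) and lymphoid-like cells (62.3 and 132) were lowest. In control DMF-like cells stood clear of ALMF-like and mesothelial-like of pericyte-like cells, and in *Gli1 HHIPCKO* all neighbours met. The interval of the ratio lay above 0 in 9 of 11 classes and held 0 in pericyte-like and peribronchial-like cells. *Per1* rose in lymphoid-like (1.09, 0.54 to 1.64) and ciliated-like cells (1.05, 0.62 to 1.48), though thinning gave 0.75 in the former and resolution 0.5 gave 0.91 in the latter. The ratio was 0.89 (0.78 to 1.00) in AT2-like and 0.41 (0.33 to 0.49) in myofibroblast-like cells.

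*Zbtb16* (ENSMUSG00000066687; chr9:48654297-48836222, minus strand) encodes the zinc finger repressor PLZF and is among the most hormone-responsive genes in several human and mouse cell types. It rose in 2 classes and fell in 1 of the 8 tested. In pericyte-like cells it went from 5.24 CPM (1.43 to 13.4) to 34.7 CPM, on 4 and 47 UMIs, a ratio of 2.73 (1.27 to 4.66). In AT2-like cells it went from 11.7 to 24.4 CPM, a ratio of 1.06 (0.80 to 1.33) that was 0.91 with the libraries clustered separately. The larger of the 2 AT2-like clusters had a ratio of 1.17 (0.88 to 1.46). The smaller, with 772 control and 248 *Gli1 HHIPCKO* cells, had −0.10 (−1.17 to 0.85), on 41 and 12 UMIs. In peribronchial-like cells *Zbtb16* fell from 103 to 44.5 CPM, on 67 and 37 UMIs, a ratio of −1.21 (−1.83 to −0.61). The gene therefore did not move one way across the lung. Alveolar fibroblast-like cells had 119 and 75.2 CPM, a ratio of −0.67 (−0.88 to −0.45), and myofibroblast-like cells 88.6 and 70.4 CPM, a ratio of −0.33 (−0.49 to −0.17), while adventitial fibroblast-like cells had 48.4 and 64.6 CPM. ALMF-like (92.6 and 89.5 CPM), DMF-like (85.7 and 67.5), vascular smooth muscle-like (71.5 and 67.7) and mesothelial-like cells (44.1 and 43.4) filled the upper and middle places, and lymphoid-like (24.0 and 26.9), endothelial-like (23.6 and 62.7) and ciliated-like cells (18.6 and 21.9) had under 50 UMIs. All neighbours in the order had meeting intervals in both libraries.

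*Sgk1* (ENSMUSG00000019970; chr10:21882184-21999903, plus strand), a kinase induced by serum and by glucocorticoids that acts on ion channels, rose in 2 of 10 classes tested. Myofibroblast-like cells went from 41.9 CPM (37.6 to 46.6) to 104 CPM (97.1 to 111), a log2 ratio of 1.31 (1.13 to 1.49), and mesothelial-like cells from 53.8 to 149 CPM, a ratio of 1.47 (1.03 to 1.93). The ALMF-like and DMF-like ratios were 1.03 and 1.29, but the DMF-like ratio was 0.08 at resolution 0.5. AT2-like cells, at 8.90 and 17.7 CPM, came just short with 0.99 (0.69 to 1.30). That ratio was past 2-fold under 7 of 13 alternatives, among them thinning (1.07), so the missing call depended on the setting. Endothelial-like cells had by far the highest level, 402 CPM (337 to 475) and 372 CPM (293 to 464), clear of alveolar fibroblast-like cells (107 and 156 CPM) in both libraries, and a ratio of −0.11 whose interval held 0 (−0.53 to 0.30). Thinning left 53 and 24 of these cells, under the minimum of 50, with 42 and 8 *Sgk1* UMIs and a ratio of −1.25. Between these lay lymphoid-like (86.3 and 110 CPM), peribronchial-like (63.2 and 67.4), adventitial fibroblast-like (56.4 and 88.8) and vascular smooth muscle-like cells (54.3 and 80.2), then pericyte-like (26.2 and 45.0) and ciliated-like cells (13.3 and 17.2), with meeting intervals in control. *Sgk1* thus passed the rule in cells with a middling level and not where it was highest.

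*Txnip* (ENSMUSG00000038393; chr3:96557957-96561883, plus strand), which encodes a thioredoxin-binding arrestin that lowers glucose uptake and responds to both sugar and glucocorticoids, rose in 8 of 11 classes. Its interval lay above 0 in all 11. Adventitial fibroblast-like cells, lowest in control at 192 CPM (176 to 209), reached 633 CPM (603 to 664), the largest ratio, 1.72 (1.58 to 1.86). ALMF-like cells went from 440 CPM (418 to 463) to 1437 CPM (1369 to 1507) and DMF-like cells from 380 to 776 CPM, which gave the combined class a ratio of 1.10 (1.04 to 1.16). When clusters made up almost wholly of 1 library were left out, the ALMF-like ratio of 1.71 took its place. The *Txnip* ratio of ALMF-like cells was 1.21 at resolution 2, and that of DMF-like cells, 1.03, was 0.72 at resolution 0.5 and 1.27 with listed genes allowed in clustering, so the distance between the parts depended on the clustering.

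Among the other classes, *Txnip* went from 264 to 767 CPM in alveolar fibroblast-like, from 258 to 748 in pericyte-like, from 270 to 849 in mesothelial-like, from 471 to 1482 in vascular smooth muscle-like, from 450 to 1100 in peribronchial-like and from 541 to 1202 CPM in endothelial-like cells, with ratios of 1.15 to 1.65. The ratio stayed below 1 in AT2-like (226 and 326 CPM; 0.53, 0.47 to 0.59), ciliated-like (915 and 1423 CPM; 0.64) and lymphoid-like cells (401 and 628 CPM; 0.65). All the stromal classes passed the rule, and neither epithelial class did, a difference between classes that was not tested. In control, ciliated-like cells stood clear at the top; in *Gli1 HHIPCKO*, vascular smooth muscle-like, ALMF-like and ciliated-like cells met at the top and AT2-like cells stood clear at the bottom. A *Txnip* UMI was found in 56.0% of control and 80.7% of *Gli1 HHIPCKO* myofibroblast-like cells, and in 47.5% and 71.7% after thinning. Red cell-like cells had 8.29% and 35.3% after thinning, below the myofibroblast-like share within each library. As set out further on, red cell-like values are read within a library only.

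*Mt1* (ENSMUSG00000031765; chr8:94179082-94180327) and *Mt2* (ENSMUSG00000031762; chr8:94172664-94173568) lie 5513 bases apart on the plus strand and encode small cysteine-rich proteins that buffer zinc. *Mt1* rose in 9 of 11 classes, and its interval lay above 0 in all 11. AT2-like cells went from 226 CPM (218 to 234) to 663 CPM (651 to 676), a log2 ratio of 1.55, and myofibroblast-like cells from 115 CPM (108 to 123) to 311 CPM (300 to 323), a ratio of 1.43 (1.33 to 1.54). The ratio was 1.05 (0.94 to 1.17) in the DMF-like and 1.51 (1.18 to 1.84) in the ALMF-like part. ALMF-like cells, which held less *Mt1*, made up less of the class in *Gli1 HHIPCKO*. Epithelial and stromal cells thus both held more *Mt1* in the *Gli1 HHIPCKO* mouse. The largest ratios were 2.36 (1.97 to 2.77) in mesothelial-like cells, at 57.3 and 294 CPM, and 2.18 (1.93 to 2.43) in alveolar fibroblast-like cells, at 64.9 and 294 CPM, where allowing the listed genes into clustering gave 1.39. Ciliated-like cells held by far the most, 1813 CPM (1735 to 1893) and 2726 CPM (2600 to 2858), clear of every other class in both libraries, and had the smallest ratio, 0.59 (0.50 to 0.68).

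Adventitial fibroblast-like cells came next for *Mt1* with 274 and 708 CPM, followed by AT2-like cells, whose interval met theirs only in *Gli1 HHIPCKO*. Vascular smooth muscle-like (171 and 383 CPM), DMF-like (164 and 339), peribronchial-like (137 and 312), endothelial-like (100 and 236), pericyte-like (87.8 and 142) and lymphoid-like cells (71.0 and 197) filled the middle with meeting intervals, and ALMF-like cells were lowest with 46.2 and 131 CPM. Pericyte-like cells, at 0.69 (0.28 to 1.11), were the other class that missed the rule. Thinning took the ratio to 0.94 in vascular smooth muscle-like, to 0.79 in peribronchial-like and to 0.90 in lymphoid-like cells. Resolution 0.5 took it to 0.42 in DMF-like and to 0.84 in ALMF-like cells. With the libraries clustered separately it was 0.94 instead of 1.24 in endothelial-like cells. These calls thus depended on the setting. A *Mt1* UMI was found in 47.7% of control and 81.7% of *Gli1 HHIPCKO* AT2-like cells, and in 29.0% and 58.9% after thinning, against 3.41% and 15.2% of red cell-like cells after thinning. In myofibroblast-like cells 10.7% and 24.3% held one, 9.23% and 19.2% after thinning, and in *Gli1 HHIPCKO* the thinned share was within the counting interval of the red cell-like share (10.4% to 21.2%).

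*Mt2* had fewer UMIs and could be tested in 5 classes, of which 4 rose. AT2-like cells went from 9.38 CPM (7.87 to 11.1) to 32.3 CPM (29.6 to 35.1), adventitial fibroblast-like cells from 13.8 to 42.9 CPM, alveolar fibroblast-like cells from 2.25 to 20.9 CPM on 5 and 148 UMIs, and myofibroblast-like cells from 2.05 to 10.9 CPM on 17 and 95 UMIs. The ratios were 1.78, 1.63, 3.21 and 2.41 in that order, and *Mt2* thus rose in classes where *Mt1* rose. The size was less firm: the *Mt2* ratio of alveolar fibroblast-like cells was 1.98 after thinning, and that of myofibroblast-like cells 1.60 at resolution 0.5 and 4.35 with listed genes allowed in clustering. Ciliated-like cells were again highest, at 128 CPM (108 to 151) and 196 CPM (163 to 233), clear of all others, with a ratio of 0.61 (0.25 to 0.96). In DMF-like cells the ratio of 2.07 rested on 14 and 91 UMIs and changed sign at resolution 0.5. The remaining classes held 0.882 to 7.95 CPM in control and 3.41 to 36.4 CPM in *Gli1 HHIPCKO*, mostly with meeting intervals.

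**Figure D2:**
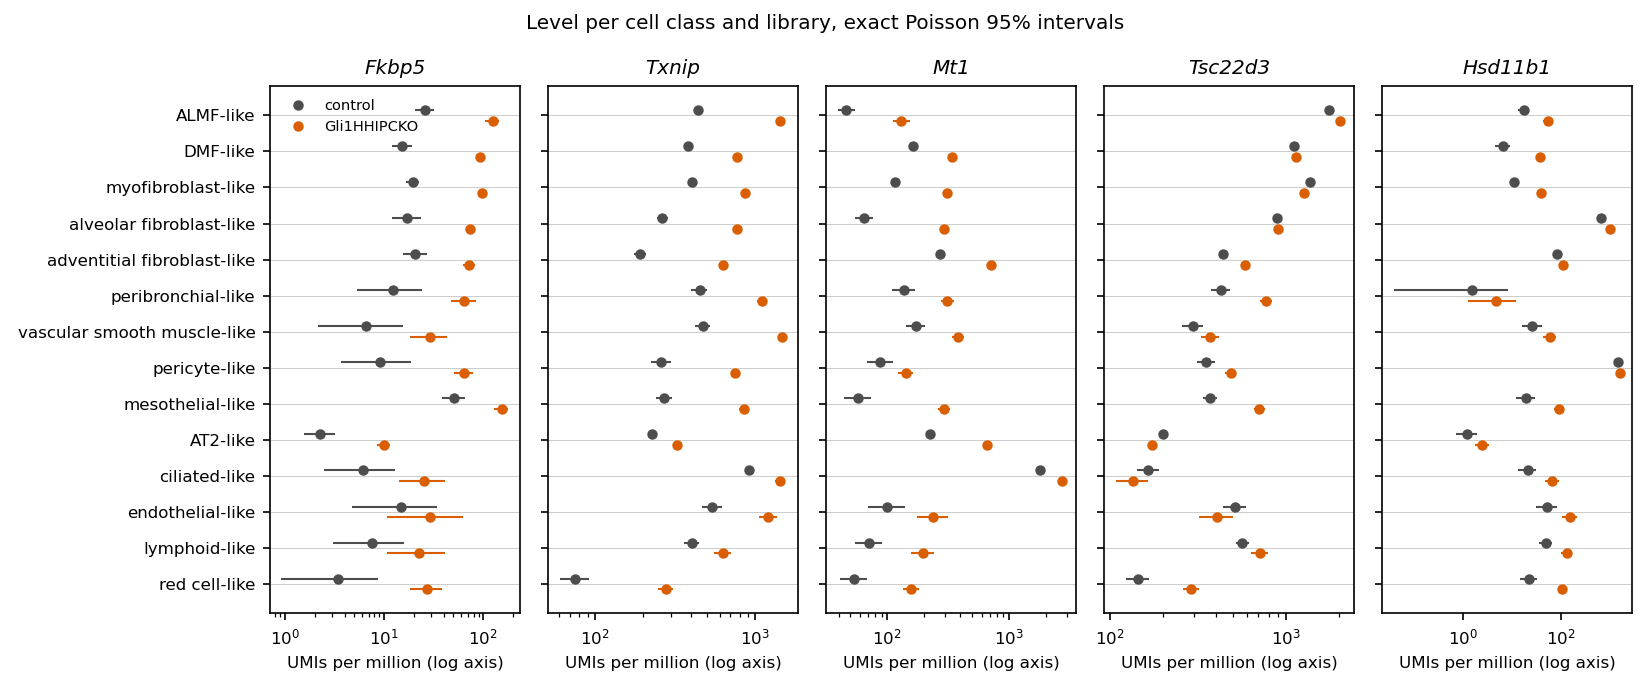
CPM (log axis, exact Poisson 95% intervals) of *Fkbp5*, *Txnip*, *Mt1*, *Tsc22d3* and *Hsd11b1* in each cell class (rows) of the control (grey) and *Gli1 HHIPCKO* (orange) libraries. *Fkbp5*, *Txnip* and *Mt1* lie to the right in *Gli1 HHIPCKO* in every class, *Tsc22d3* lies close to its control value in alveolar fibroblast-like cells (899 and 904 CPM), and *Hsd11b1* is highest in pericyte-like cells (1495 and 1609 CPM).

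Free RNA of other cells moved with the libraries and sets a limit on the values in some classes. All 11 AT2 markers had UMIs in every class, none at 0, with *Sftpc* the most abundant. Their summed level went from 2749 to 1765 CPM in myofibroblast-like cells, from 7542 to 1631 CPM in mesothelial-like cells and from 13103 to 2121 CPM in peribronchial-like cells. AT2 RNA was thus lower in *Gli1 HHIPCKO* in these 3 classes, while in vascular smooth muscle-like cells it stood at 2986 and 3254 CPM. Haemoglobin RNA went the other way, with *Hbb-bs* at 346 and 701 CPM in myofibroblast-like cells and at 645 and 11360 CPM in pericyte-like cells. The part of red cell RNA in the members' values was not tested. AT2 marker RNA was far higher in lymphoid-like (53230 and 69915 CPM), endothelial-like (80721 and 56033 CPM) and ciliated-like cells (49741 and 54272 CPM). Red cell-like cells, 215 and 198 in number, carried the members too, with 3.40 and 27.0 CPM of *Fkbp5*, 74.9 and 277 CPM of *Txnip*, 53.6 and 157 CPM of *Mt1* and 22.1 and 107 CPM of *Hsd11b1*. Their median over all genes was 0.66 higher in *Gli1 HHIPCKO*, so these levels are read within a library only.

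The level that free RNA would bring to a class was taken as the gene's UMIs per *Sftpc* UMI in red cell-like cells times the class's *Sftpc* level, with 42 stromal markers in place of *Sftpc* for the epithelial classes, as if all of a gene's UMIs in red cell-like cells were free RNA. In myofibroblast-like cells this came to 1.17% (control) and 0.817% (*Gli1 HHIPCKO*) of the *Fkbp5* level, 1.23% and 0.935% of that of *Txnip* and 3.09% and 1.48% of that of *Mt1*. For *Hsd11b1* in these cells it was 13.1% and 7.88%, and for *Mt2* 11.1% and 2.11%. In mesothelial-like cells it came to 17.2% and 1.45% of the *Mt1* and 21.0% and 3.19% of the *Hsd11b1* level, and in pericyte-like cells to 23.4% and 2.37% of the *Zbtb16* level. As a percentage, the estimate thus differed widely between members and was larger in control than in *Gli1 HHIPCKO* in each of these cases. In CPM it was larger in *Gli1 HHIPCKO* for *Fkbp5* (0.226 and 0.788), *Txnip*, *Mt1* and *Hsd11b1* of myofibroblast-like cells, and nearly level for *Mt2*. The CPM estimates of the mesothelial-like and pericyte-like cases were larger in control. For *Hsd11b1* in vascular smooth muscle-like cells the estimate came to 6.12% and 9.90% of the level, larger in *Gli1 HHIPCKO*. In AT2-like cells it came to 6.23% and 4.77% of the *Mt1* level, but to 39.6% and 54.5% of the *Fkbp5* level and to 472% and 854% of the *Hsd11b1* level. The *Hsd11b1* estimate, 5.81 and 21.5 CPM, was above the counting intervals of what was there (0.730 to 1.95 and 1.81 to 3.40 CPM), so the composition of red cell-like cells did not hold for that gene in AT2-like cells, and the other percentages there rest on the same factor. In lymphoid-like cells it was 100% and 97.2% of the *Mt1* level, 59.8% and 100% of the *Per1* level and 59.7% and 98.5% of the *Hsd11b1* level, so the *Gli1 HHIPCKO* levels of the 3 members called there were within counting error of the carried level. In ciliated-like cells it was 108% and 119% of the *Hsd11b1* level and 37.9% and 51.1% of the *Per1* level, the 2 members called there. In endothelial-like cells it was 106% and 66.1% of the *Mt1* level, 82.4% and 68.8% of the *Hsd11b1* level and 27.4% and 22.9% of the *Txnip* level. The *Gli1 HHIPCKO* estimate of *Mt1* there, 156 CPM, was below the interval of its level (175 to 313 CPM), while that of *Hsd11b1*, 106 CPM, reached its interval (106 to 218 CPM). No interval was worked out for the estimates themselves, and some rest on few UMIs in red cell-like cells. Control and *Gli1 HHIPCKO* red cell-like cells held 4 and 31 UMIs of *Fkbp5*, 4 and 9 of *Mt2* and 13 and 18 of *Zbtb16*.

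Other genes known to be induced by glucocorticoids were looked at as a list of 20, of which 17 were tested in at least 1 class. They gave 135 values, of which 39 rose and 2 fell. Beside the counts of this list and those that follow, 1.02% to 3.62% of all genes rose and 0.672% to 3.23% fell, depending on the class. The list's median log2 ratio ran from 0.34 in ciliated-like and endothelial-like cells to 1.08 in peribronchial-like cells, where the median of all genes was 0.07. *Glul*, glutamine synthetase, rose in 8 of 11 classes, from 577 to 1206 CPM in myofibroblast-like cells and from 148 to 497 CPM in adventitial fibroblast-like cells. *Klf15*, a transcription factor of metabolic genes, rose in 4 of 9 classes, from 9.70 to 49.5 CPM in mesothelial-like cells. *Pdk4*, a kinase that shuts pyruvate dehydrogenase, rose in 4 of 7, from 1.51 to 7.02 CPM in AT2-like cells. *Hif3a*, a hypoxia-inducible factor subunit, rose in 4 of 6, *Arrdc2* in 4 of 7, and *Ddit4*, an inhibitor of mTORC1, in 4 of 11. The list thus leaned the same way as the members in stromal and epithelial classes, though not in full. Like the members, it was chosen with earlier results of these data known, so it is no separate support. *Bcl6*, a transcriptional repressor, fell from 31.7 to 14.5 CPM in AT2-like cells and by a ratio of −1.64 in myofibroblast-like cells, and *Klf9* had a ratio of at least 0.43 in all 11 classes and passed the rule only in lymphoid-like cells (128 and 265 CPM), where free RNA was abundant and red cell-like cells held 63.8 and 204 CPM. The level carried by free RNA was worked out for the members only. *Cdkn1c*, *Rhob*, *Mertk* and *Map3k6* rose in none of the classes where they were tested. *Angptl4* (228 and 565 CPM in pericyte-like cells), *Anxa1* (43.1 and 91.5 CPM in peribronchial-like cells), *Galnt15*, *Sult1a1* and *Lcn2* each rose in 1 to 3 classes.

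Another 10 glucocorticoid-induced genes are also immediate response genes, which handling of tissue can raise. They gave 105 values, of which 15 rose and 0 fell, with a median of 0.28 to 0.86. *Errfi1*, a feedback inhibitor of the EGF receptor, rose in 4 of 11 classes, from 323 to 1052 CPM in alveolar fibroblast-like cells, and *Nfkbia*, which encodes the NF-κB inhibitor IκBα, in 3 of 11, from 138 to 336 CPM in adventitial fibroblast-like cells. *Dusp1*, *Zfp36* and *Klf4* rose in none of the classes tested. For comparison, 10 immediate early genes gave 106 values, of which 11 rose and 7 fell, with a median of −0.36 to 1.24. In pericyte-like cells 5 of 8 rose, among them *Fos* (55.0 and 140 CPM) and *Junb* (41.9 and 133 CPM), while *Nr4a1* fell in 6 of 10 classes, from 631 to 202 CPM in alveolar fibroblast-like cells. The falls were all in *Nr4a1* and, in endothelial-like cells, *Egr1*. Apart from *Nr4a1*, each gene of the list had a ratio above 0 in most of its classes, from 7 of 11 for *Ier2* to 9 of 9 for *Socs3*. The part of handling in these or the members' values was not tested. Of 6 heat shock genes, 4 of 52 values rose and 1 fell.

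Genes around the receptor moved little. The list of 16 receptor, chaperone, cofactor and steroid enzyme genes, which includes *Fkbp5* and *Hsd11b1*, gave 135 values, of which 15 rose and 1 fell, and its median ran from −0.23 to 0.12. Of those 15 rises, 14 were *Fkbp5* and *Hsd11b1*, and the other was *Nr3c2*, the mineralocorticoid receptor, at 3.61 and 7.62 CPM in alveolar fibroblast-like cells. The *Nr3c2* ratio, 1.08 on 8 and 54 UMIs, had an interval that held 0 (−0.00 to 2.36). *Hsd11b2*, the enzyme that inactivates the hormone, fell from 17.8 to 6.34 CPM in adventitial fibroblast-like cells, a ratio of −1.49 (−2.38 to −0.67). The chaperone genes *Hspa8* and *Fkbp4* had ratios below 0 in all 11 and all 10 classes tested, none past the rule, between −0.82 and −0.33 and between −0.70 and −0.14. *Fkbp4*, whose product competes with that of *Fkbp5* at the receptor, thus did not rise with it in any class tested.

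Of the 10 metallothionein and zinc genes, 8 were tested in at least 1 class, and *Mt1* and *Mt2* made up all 13 rises among 46 values. *Slc30a1*, the zinc exporter that metals induce through the same factor as the metallothioneins, had ratios of −0.35 to 0.77 over 6 classes, and *Mtf1*, which encodes that factor, −0.50 to 0.37 over 5. The zinc importer *Slc39a10* had ratios below 0 in all 8 classes tested, from −0.91 to −0.26. A rise of the metallothioneins thus came without a called rise of the other zinc genes. In the list of *Txnip* partners and sugar-responsive genes, 13 of 62 values rose, 8 of them *Txnip*, and 4 were *Arrdc4*, its nearest relative, which rose in 4 of 5 classes and went from 6.31 to 20.7 CPM in alveolar fibroblast-like cells. The other was *Arrdc3* in mesothelial-like cells (25.6 and 52.5 CPM). *Txn1*, the thioredoxin that the *Txnip* product binds, was called in none of 11 classes.

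*Per1* also belongs to a list of 16 clock genes, with 109 values, of which 20 rose and 2 fell. The rises were in genes that the clock's activators drive, such as *Dbp* (4 of 9 classes; 27.0 and 57.4 CPM in AT2-like cells), *Nr1d1* (3 of 5), *Tef* (3 of 9) and *Ciart* (2 of 2; 2.26 and 13.7 CPM in AT2-like cells). *Npas2*, an activator that is high at the opposite phase, fell from 14.9 to 7.20 CPM in alveolar fibroblast-like cells and by a ratio of −1.03 in AT2-like cells. The 2 mice thus also differed in clock genes, and the hour at which each lung was taken is not given in the labels. Glucocorticoids vary over the day as well, and the part of the clock in the members' values was not tested.

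Genes with the most similar pattern were sought among 13066 genes by Pearson's r of log2 levels over 30 sums, 15 classes in each of the 2 libraries. The points share libraries and depth, and r is a description. *Mt1* and *Mt2* were each other's nearest gene (r = 0.885), and *Acsl3* was among the nearest 3 of both (0.765 for *Mt1* and 0.872 for *Mt2*), with *Wdr66* (0.798) after it for *Mt2*. *Fkbp5* was nearest to *5730455P16Rik* (0.778), *Ptch1* (0.767) and *Zfp799* (0.765), the lowest top value of the 10. *Txnip* was nearest to *Spop* (0.883), *Gm15441* (0.864), which overlaps it on the opposite strand, and *Ddx5* (0.820). *Nr3c1* had the closest match of all with *Pttg1ip* (0.957), then *Sgce* (0.926) and *Leprot* (0.923), and *Per1* was nearest to *Nedd4* (0.935), *Tor1aip1* (0.884) and *Rab18* (0.873). *Hsd11b1* went with *Mettl21e* (0.927), *Nt5dc2* (0.899) and *Cxcl14* (0.877), and *Tsc22d3* with *Evl* (0.838), *Hivep2* (0.836) and *Robo1* (0.823). *Zbtb16* was nearest to *Phactr1* (0.844), *Six5* (0.840) and *Phka2* (0.829), and *Sgk1* to *Plgrkt* (0.830), *Pced1b* (0.806) and *Tmed5* (0.788). Apart from the metallothioneins, no member had another member among its nearest 3.

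Promoter windows of 300 bases around gene starts (RefSeq, GRCm38.p6) were searched on both strands, because several members moved together and both the receptor and the metal-responsive factor bind known letters. Of the members, 8 had a window, 16 windows in all. The full receptor palindrome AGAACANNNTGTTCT was found in 3 of 32851 windows, 0.00913%, and 1 of the 3 was a window of *Sgk1*. Its inner letters with fewer fixed bases, GNACANNNTGTNC, which lie within the full palindrome, were in 156 windows, 0.475%, and in windows of *Sgk1*, *Txnip* and *Mt1*, 3 of the members' 16. The core of the metal response element, TGCACNC or TGCGCNC, was in 25.7% of all windows and in 6 of the 16, with at least 3 matches in 1.97% of all windows and at least 4 in 0.517%. *Mt1* had 3 matches and *Mt2* had 4. The windows of *Fkbp5* and *Tsc22d3* held none of the 3 motifs. A match describes letters only and says nothing of binding.

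The windows with the palindrome in *Sgk1* and *Txnip* and with the repeated metal response core in the metallothioneins are shown, since these are the matches that few windows share. Capitals mark GNACANNNTGTNC in the windows of *Sgk1* (chr10:21993640-21993939, plus strand) and *Txnip* (chr3:96557707-96558006, plus strand). They mark the metal response core, on either strand, in those of *Mt1* (chr8:94178839-94179138, plus strand) and *Mt2* (chr8:94172368-94172667, plus strand).
Sgk1: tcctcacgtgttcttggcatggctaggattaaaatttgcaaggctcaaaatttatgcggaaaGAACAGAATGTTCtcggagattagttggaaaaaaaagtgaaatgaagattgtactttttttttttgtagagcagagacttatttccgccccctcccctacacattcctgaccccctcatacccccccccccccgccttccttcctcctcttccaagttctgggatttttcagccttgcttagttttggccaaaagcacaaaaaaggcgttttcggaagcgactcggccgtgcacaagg
Txnip: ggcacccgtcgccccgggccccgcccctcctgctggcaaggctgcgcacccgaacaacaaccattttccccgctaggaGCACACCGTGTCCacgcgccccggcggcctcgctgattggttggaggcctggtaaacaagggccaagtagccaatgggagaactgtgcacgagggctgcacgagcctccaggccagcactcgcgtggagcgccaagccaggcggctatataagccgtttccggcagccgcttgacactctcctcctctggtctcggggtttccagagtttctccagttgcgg
Mt1: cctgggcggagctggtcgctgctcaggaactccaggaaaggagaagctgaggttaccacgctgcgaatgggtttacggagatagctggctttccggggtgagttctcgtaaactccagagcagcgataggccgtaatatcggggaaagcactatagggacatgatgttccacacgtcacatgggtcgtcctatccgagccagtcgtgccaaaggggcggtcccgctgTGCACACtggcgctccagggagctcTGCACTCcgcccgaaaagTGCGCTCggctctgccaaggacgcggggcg
Mt2: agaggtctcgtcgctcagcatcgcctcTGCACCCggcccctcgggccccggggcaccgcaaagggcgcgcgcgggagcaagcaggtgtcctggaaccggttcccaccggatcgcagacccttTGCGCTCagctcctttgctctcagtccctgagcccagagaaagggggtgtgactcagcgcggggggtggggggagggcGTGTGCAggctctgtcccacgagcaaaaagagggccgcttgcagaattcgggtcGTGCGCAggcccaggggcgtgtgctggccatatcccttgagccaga
The *Mt1* window also holds GGACATGATGTTC at chr8:94178995-94179007, in lower case here, so that *Mt1* alone among the members searched had both kinds of letters with 3 or more metal response cores.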

How the data were processed

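The authors deposited raw counts (UMIs per gene and called cell) for both libraries, with reads aligned to mm10. The sample labels name Cell Ranger 3.1.0 and the matrix headers 6.1.0, the version the methods give. The members and lists were chosen with earlier results of these data known.

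The filter passed cells in which 200 to 6000 genes were found and mitochondrial UMIs made up no more than 10%, which gave 10917 control and 12115 *Gli1 HHIPCKO* cells. The libraries were merged without integration and clustered on 2000 variable genes, 30 principal components, 20 neighbours and Leiden resolution 1, with 109 genes held out, among them all members, list genes and *Hhip*. Of 35 clusters, 21 were named from marker lists. The naming rule and its thresholds (a score of 0.45, a second class under 0.85 of the best, another lineage under 0.25 and 3 markers in 10% of the cells) were set after the clusters were seen, so names can differ from the study's. The values given were made without a doublet caller.

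UMIs were summed per class and library for classes with at least 50 cells in each, with exact Poisson and exact binomial 95% intervals, and a count of 0 was set to a floor of 3 UMIs for a bound. The steps were tested on simulated data. Named genes are the members, list genes past 2-fold, up to 4 others per list by level, *Hhip*, *Xist* and, per member, up to 3 of the genes with the highest r of log2(CPM + 10); other list genes named and those named as rising in many classes were chosen after their values were seen. Alternatives changed the cell filter, scaling (median ratio, trimmed mean of M values, a total without abundant gene groups), cell weights, depth, doublets, resolution, separate clustering, genes held out, the UMI minimum and the fold. Positions come from GENCODE vM21. The software was matplotlib 3.10.9, leidenalg 0.10.2, pandas 2.3.3, scikit-learn 1.9.0, numpy 2.4.6, igraph 0.11.9 and scipy 1.17.1 under Python 3.11.15.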

Additional observations from a re-analysis of the deposited data

Results flagged for a closer look

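*Tsc22d3* and *Zbtb16* moved in opposite directions in different cell classes of the same mice. *Tsc22d3* had a log2 ratio of 0.93 in mesothelial-like cells and of −0.21 in AT2-like cells, and neither passed 2-fold. *Zbtb16* had 2.73 in pericyte-like cells, on 4 control UMIs, and −1.21 in peribronchial-like cells. The counting intervals lay on opposite sides of 0 in each case. With 1 mouse per group the difference was not tested, for either gene.

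All values rest on 1 mouse per group, and the mice differed in sex. Deletion, tamoxifen, sex, hour of sampling and library preparation cannot be told apart. Intervals take no account of variation between mice. Classes come from marker scores, ALMF-like and DMF-like cells are separated along a line that moves with the clustering, and lymphoid-like, endothelial-like and ciliated-like cells carried much free RNA.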

How the results depend on the processing

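No paired analysis was possible because each group held 1 mouse and both are replicate 1. Of the 42 called ratios of the members in the 11 classes, 41 kept their sign under each of up to 13 alternatives and 31 stayed past 2-fold under all of those that gave a value. Of 517 alternative values, 483 lay within the counting interval, 33 outside it and 1 had the other sign. That one was *Hsd11b1* in lymphoid-like cells, −0.40 instead of 1.43 without the highest doublet scores. Outside the 11 classes, *Mt2* in DMF-like cells was −0.68 instead of 2.07 at resolution 0.5. The cause was not tested in either case.

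Of 334 alternative counts of members past the fold, 314 were within 1.5 times the count given and 20 were not. With each cell thinned to 2000 UMIs, the members that rose numbered 1 in pericyte-like, 1 in vascular smooth muscle-like, 1 in peribronchial-like, 1 in ciliated-like and 0 in lymphoid-like cells, and those that fell in peribronchial-like cells 0. Several of the lost calls kept their fold and had under 50 UMIs after thinning: *Fkbp5* (2.08) and *Zbtb16* (3.49) in pericyte-like, *Hsd11b1* in vascular smooth muscle-like (1.28) and ciliated-like (1.36), and *Fkbp5* (3.30) and *Zbtb16* (−1.95) in peribronchial-like cells. *Mt1* in vascular smooth muscle-like (0.94) and peribronchial-like cells (0.79) and the lymphoid-like members lost the fold itself. Endothelial-like cells, 53 and 24 after thinning, were under the minimum of 50 cells and are in no tally; *Txnip* was 0.60 there, *Sgk1* −1.25, and *Mt1* (1.76) and *Hsd11b1* (2.23) had under 50 UMIs. At 1.5-fold, 5 rose in pericyte-like, 5 in peribronchial-like and 5 in ciliated-like cells, and 1 fell in alveolar fibroblast-like cells. With a minimum of 10 UMIs, 5 rose in vascular smooth muscle-like and 5 in lymphoid-like cells; with none but 1 UMI in each library, 5 rose in vascular smooth muscle-like, 5 in lymphoid-like and 5 in peribronchial-like cells. Without the highest doublet scores, 0 rose in lymphoid-like and 1 in ciliated-like cells. With each cell counted equally, 1 rose in lymphoid-like cells. In ciliated-like cells, 1 rose at resolution 0.5 and 1 with listed genes allowed in clustering. For the counts other than those at another minimum or fold and the calls under 50 UMIs, the cause was not tested.

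The alternatives without barcodes of both libraries and without clusters of over 90% 1 library were chosen after seeing the data. The latter left out both DMF-like clusters, so the myofibroblast-like class became its ALMF-like part. Vascular smooth muscle-like, lymphoid-like and peribronchial-like cells were not named in some reclusterings and have no value there. Other scalings shifted all genes by less than 0.1 (log2) in the 11 classes. In mesothelial-like cells 135 genes rose and 85 fell by the total, and 109 and 105 by the median ratio. In lymphoid-like cells 133 rose and 152 fell by the total, 129 and 184 by the median ratio, and 156 and 130 without abundant gene groups.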

Other observations

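Clusters without a name differed among themselves. A cluster of 73 control and 182 *Gli1 HHIPCKO* cells with *P4ha3* and *Cdh4* among its leading genes, at a median of 841 UMIs per cell, was the only cluster, of 20 with enough cells, in which *Mt1* fell. *Mt1* stood there at 1130 CPM in control, on 102 UMIs, and 168 CPM in *Gli1 HHIPCKO*, on 29, with a ratio of −2.75 (−3.40 to −2.15). *Sgk1* stood at 454 and 28.9 CPM, on 41 and 5 UMIs, and *Mt2* at 155 and 34.7 CPM, on 14 and 6 UMIs, both under the minimum. *Fkbp5* had 2 and 12 UMIs in that cluster.

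A shallow cluster of 401 and 193 cells whose best score was for AT2s, at a median of 1089 UMIs, had *Mt1* at 111 and 348 CPM (1.64, 1.14 to 2.16) and *Per1* at 157 and 339 CPM (1.11, 0.64 to 1.57). A cluster of 148 and 112 cells, led by *Car1* and cell cycle genes, had *Txnip* at 184 and 377 CPM (1.04, 0.75 to 1.32) and *Mt1* at 336 and 323 CPM (−0.06, −0.31 to 0.19). Over all 20 clusters, *Mt1* rose in 16 and fell in 1, *Txnip* rose in 12 and *Fkbp5* in 9 of the 9 where it was tested. These include 7 clusters without a name, some with markers of both AT2s and stromal cells, and cells with the highest doublet scores made up 37.4% (control) and 45.4% (*Gli1 HHIPCKO*) of unnamed cells, against 3.65% and 3.45% of named cells, so the clusters are no separate support.

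The 2 smallest classes were compared in no value by class. Myeloid-like cells, 84 control and 17 *Gli1 HHIPCKO* cells, had *Tsc22d3* at 661 and 858 CPM and *Sgk1* at 236 CPM (184 to 298) and 175 CPM (80.2 to 333). Schwann-like cells, 26 and 25, had *Txnip* at 502 CPM (346 to 706) and 1219 CPM (981 to 1499). *Fkbp5* had 2 and 0 UMIs in the former and 0 and 3 in the latter.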
